A study of Homo sapiens with 3 samples.

Results

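The cells described here are the TFAP2A-high cells of day 2, which were 417 of the 7892 kept cells of the day 2 library (5.28%, exact binomial 95% interval 4.80 to 5.80%) and of 18830 kept cells in the 3 libraries. A kept barcode had at least 1000 detected genes and at most 20% of its unique molecular identifiers (UMIs, each standing for 1 captured RNA molecule) from mitochondrial genes. A kept cell was TFAP2A-high with at least 2 UMIs of TFAP2A (ENSG00000137203) and was set against the 6411 kept day 2 cells with 0 TFAP2A UMIs. The 1064 cells with exactly 1 TFAP2A UMI belonged to neither class. Membership was thus selected on the measured TFAP2A count itself. The cells came from UCLA1, an established line of human embryonic stem cells, after 2 days of the GiMO culture named in the labels. There the pluripotent cells lie beneath a layer of Geltrex, which is an extract of basement membrane. The same culture was sampled at day 1 and day 3, with 1 library per day. The labels name no genotype change, and they do not say whether or when BMP4, which the series title names, was added to these cultures.

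TFAP2A encodes AP-2 alpha, a transcription factor that binds GC-rich palindromes as a dimer with itself or with other AP-2 proteins. It is known as a regulator of surface ectoderm and neural crest, and it is among the genes that pluripotent cells switch on early after a BMP signal, together with GATA3, on the way to amnion and related lineages. In the same window of development, epiblast cells that enter the primitive streak express TBXT, MIXL1 and EOMES, and those that leave it as nascent mesoderm express MESP1.

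TFAP2A chose the cells, so its level is a description and not a result. Of the TFAP2A-high cells, 283 had 2 TFAP2A UMIs, 93 had 3, 27 had 4, 7 had 5 and the remaining 7 had between 6 and 10. They held 49.5% of the day 2 TFAP2A UMIs and 7.09% of all UMIs of kept day 2 cells. A cell with more UMIs is more likely to pass such a threshold, and depth differed between the classes. The median was 21530 UMIs and 5871 genes per cell in the TFAP2A-high cells, against 15431 UMIs and 4888 genes in the cells with 0 TFAP2A UMIs. Among the cells just outside the threshold, with 1 TFAP2A UMI, the median was 18142.5 UMIs, and just inside it, with 2, it was 20508. The median share of mitochondrial UMIs was 3.71% in the TFAP2A-high cells and 4.08% in the cells with 0. Of the TFAP2A-high cells 65 (15.6%) were among the highest doublet scores of the library, against 495 (7.72%) of the cells with 0. Values at matched depth below are against the same 6411 cells reweighted to the depth of the TFAP2A-high cells (weighted median 21493 UMIs).

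**Figure D1:**
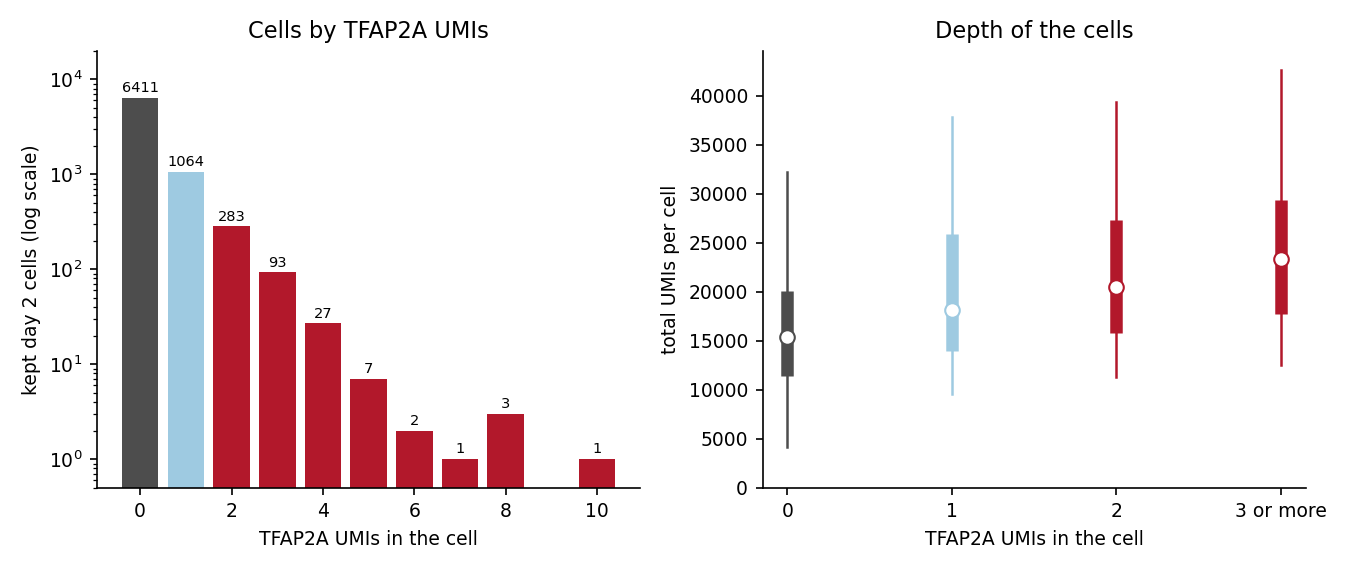
Left, the number of kept day 2 cells (log scale) by TFAP2A UMIs in the cell, with the 417 TFAP2A-high cells in red; right, total UMIs per cell by TFAP2A UMIs, with the median as a circle, the 25th to 75th percentile as a thick line and the span from the 5th to the 95th percentile as a thin line. The median depth was 15431 UMIs at 0 TFAP2A UMIs and 23368.5 at 3 or more.

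Levels are CPM, the UMIs of a gene summed over the cells of a class and divided by the UMIs of all genes in that class, on the usual per-million scale. The UMIs of the classes were 9626583 in the TFAP2A-high cells and 104418039 in the cells with 0. A level summed in this way does not tell more expressing cells from more RNA per cell. With 1 day 2 library, differences have no replicate check, so p-values are left out. Intervals are exact 95% intervals and cover counting error only. A gene was measured where the higher class reached 10 CPM, and it was counted as higher or lower when the ratio of the classes was at least 1.5 in either direction with an interval that excludes 1. Of 9719 genes measured, 151 were counted as higher in the TFAP2A-high cells (1.55%) and 111 as lower (1.14%), TFAP2A left out. With the highest doublet scores removed 189 were higher and 159 lower, and at matched depth 172 and 88. The classes were cut from the same cells, so these counts describe them and no more is read from the shares.

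Of the 15 genes with the largest ratios, DLX5, PAX3, EYA2, HMX1, ISL1 and GATA3 encode transcription factors or a coactivator. DLX5, PAX3, S100A3, AMOT, EYA2, ISL1, HMX1, CTHRC1 and ADAMTS18 were under 10 CPM in the cells with 0. They passed the minimum through the TFAP2A-high cells alone, so their place among the highest genes is a description. DLX5 (ENSG00000105880, chromosome 7, 97020396 to 97024950 on hg38), a homeobox factor of the embryonic ectoderm and its border, was at 16.6 CPM in the TFAP2A-high cells and 2.36 CPM in the cells with 0 TFAP2A UMIs. That was 7.05-fold higher (5.74 to 8.64) and 7.78-fold at matched depth. PAX3, a paired-box factor of neural crest and dorsal neural tube, was at 12.3 and 2.21 CPM in the TFAP2A-high cells and the cells with 0, 5.54-fold higher (4.40 to 6.95). EYA2, a transcriptional coactivator in placodes, was at 14.2 and 3.87 CPM in the same classes, and HMX1, a homeobox factor of craniofacial ectoderm and nerves, at 12.5 and 3.95 CPM. ISL1 (ENSG00000016082, chromosome 5, 51383448 to 51394730), a LIM-homeobox factor of amnion and of cardiac progenitors, was 3.18-fold higher (2.61 to 3.86). GATA3 (ENSG00000107485, chromosome 10, 8045378 to 8075198), a zinc-finger factor induced early by BMP, was at 41.9 CPM in the TFAP2A-high cells and 14.7 CPM in the cells with 0, 2.85-fold higher (2.55 to 3.19).

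CLDN10 (ENSG00000134873, chromosome 13, 95433604 to 95579759), which encodes a claudin of tight junctions, had the highest level among these genes at 247 CPM in the TFAP2A-high cells, against 76.2 CPM in the cells with 0, a ratio of 3.24 (3.10 to 3.40). AMOT, which encodes angiomotin at cell junctions, was 4.75-fold higher, S100A3, which encodes a calcium-binding protein, 5.32-fold, and ACTC1, the cardiac alpha-actin gene, 3.06-fold. The link protein gene HAPLN1, whose product anchors hyaluronan in the matrix, was at 84.6 CPM in the TFAP2A-high cells and 30.5 CPM in the cells with 0. The kinesin gene KIF26B was 3.03-fold higher, the scaffold gene AHNAK 2.88-fold, the secreted CTHRC1 2.98-fold and the secreted protease gene ADAMTS18 3.08-fold. At matched depth the ratios of these 15 genes with the largest ratios lay between 2.88 for ACTC1 and 7.78 for DLX5.

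Among the 15 lowest genes were SOX2, PRDM14, CER1 and LEFTY1. SOX2 (ENSG00000181449, chromosome 3, 181711925 to 181714436), a core factor of pluripotent and neural cells, was at 39.6 CPM in the TFAP2A-high cells and 88.4 CPM in the cells with 0, a ratio of 0.448 (0.403 to 0.496). PRDM14, a repressor that supports pluripotency, was at 5.61 and 11.01 CPM in the TFAP2A-high cells and the cells with 0. CER1 (ENSG00000147869, chromosome 9, 14719724 to 14722733), which encodes a secreted antagonist of NODAL, was at 18.1 CPM in the TFAP2A-high cells, against 53.05 CPM in the cells with 0, a ratio of 0.341 (0.291 to 0.396). LEFTY1, another NODAL antagonist, was at 14.2 CPM in the TFAP2A-high cells and 34.0 CPM in the cells with 0. Its near-identical neighbour LEFTY2 went the other way, at 24.1 and 13.4 CPM in the same classes, and the counting could have split reads between the copies. OTX2, a homeobox factor of epiblast and anterior neural tissue, had a ratio of 0.483 and the orphan nuclear receptor NR5A2 0.459. The deubiquitinase USP44 had a ratio of 0.473, the lysine-degrading enzyme AASS 0.470, the matrix protein anosmin (ANOS1) 0.463, MPPED2 0.353, NAV3 0.384 and the phosphatase subunit PPP2R2B 0.512. The other named genes were long non-coding RNAs, AP000459.2 (0.331), AC004830.2 (0.434) and JAKMIP2-AS1 (0.470), the last of which may share reads with overlapping genes.

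The cells with 1 TFAP2A UMI, which took no part in the comparison, and the cells with 2 and with 3 or more give the levels along the TFAP2A count. That count chose the cells and the genes were counted for differing between its ends, so the order of levels is a description. Of the 151 genes counted as higher, 148 had a level at 1 TFAP2A UMI between those of the cells with 0 and the TFAP2A-high cells, and 117 were higher still at 3 or more than at 2. Of the 111 counted as lower, 108 lay between at 1 UMI and 67 were lower still at 3 or more than at 2. Over all 9719 measured genes, 43.2% lay between at 1 UMI and 52.9% moved further at 3 or more in the direction of their own difference. CLDN10 was at 76.2, 131, 209 and 320 CPM in cells with 0, 1, 2 and 3 or more TFAP2A UMIs, and GATA3 at 14.7, 29.5, 38.0 and 49.2 CPM. DLX5 was at 2.36, 7.34, 15.4 and 19.0 CPM in the same order. PAX3 was at 2.21 and 2.89 CPM at 0 and 1 UMI and at 10.6 and 15.4 CPM at 2 and at 3 or more, so its step lay between 1 and 2. CER1 was at 53.05, 42.3, 21.5 and 11.5 CPM in that order. HMX1 turned back, at 3.95, 8.53, 13.9 and 9.65 CPM. SOX2 was at 88.4, 53.8, 37.4 and 43.7 CPM, with overlapping intervals at 2 UMIs (32.8 to 42.5) and at 3 or more (36.9 to 51.5).

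**Figure D2:**
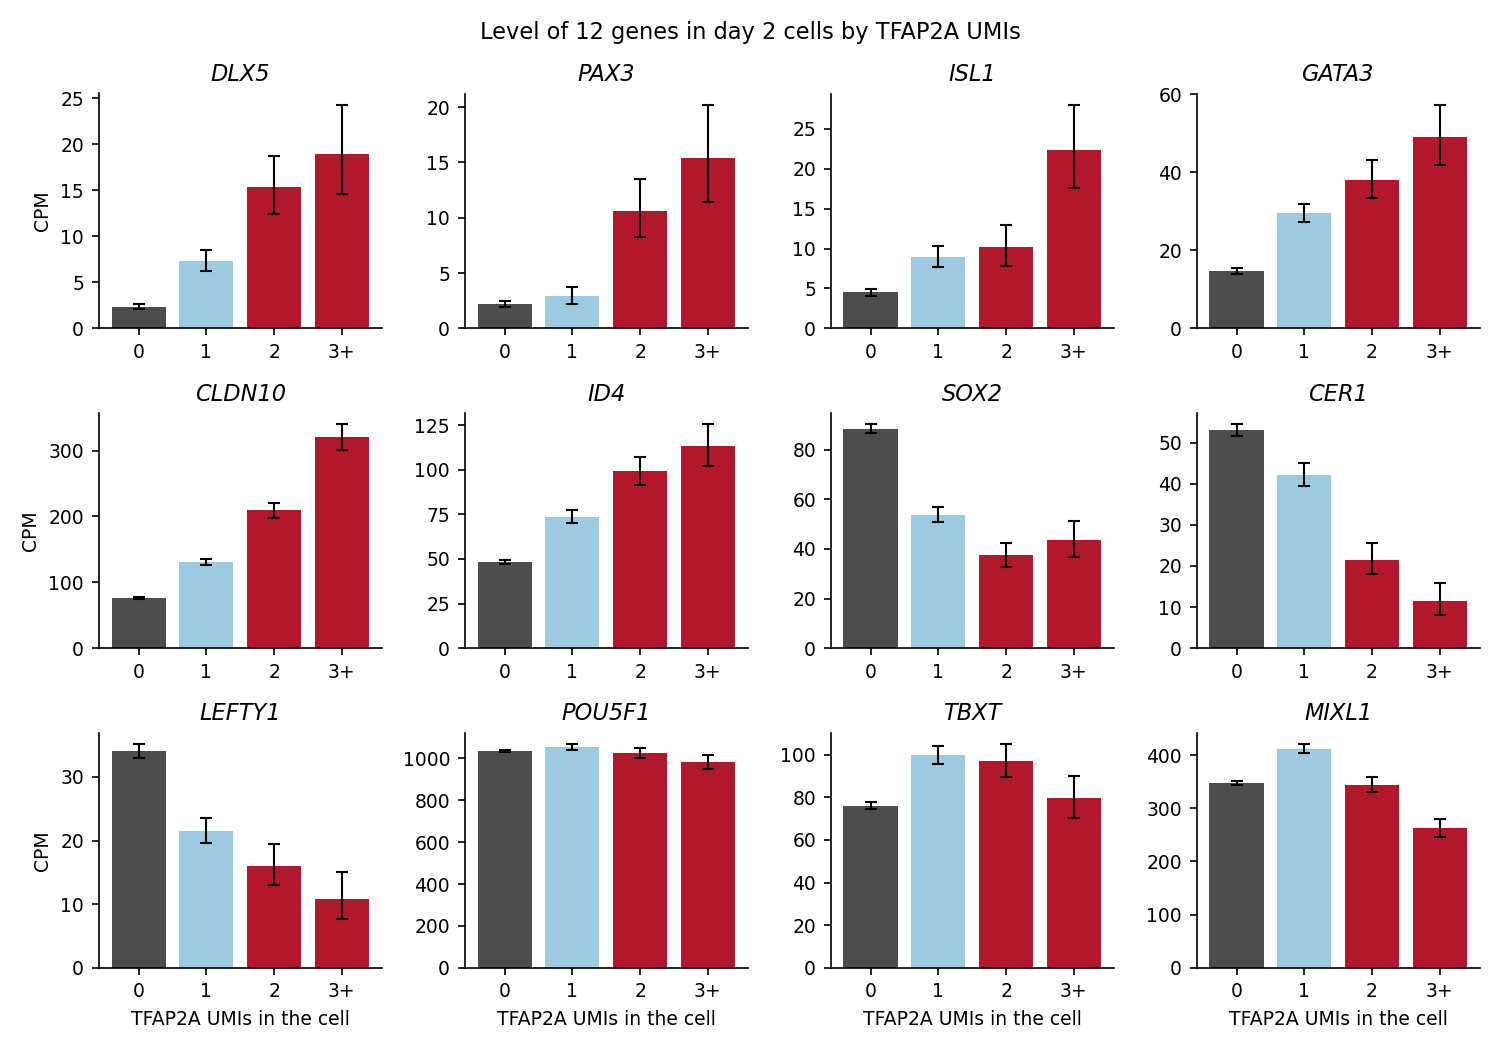
CPM of 12 genes in day 2 cells with 0, 1, 2 and 3 or more TFAP2A UMIs (3+), with exact Poisson 95% intervals for counting error. The top row and CLDN10 and ID4 step up, SOX2, CER1 and LEFTY1 are highest at 0, and POU5F1, TBXT and MIXL1 differ less, with POU5F1 between 980.3 and 1054 CPM.

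The AP-2 palindrome GCCNNNGGC was looked for near the 30 named genes, since AP-2 proteins bind such sites. The window was the 250 bases before the start in the first RefSeq promoter listed for a gene, where there was one. A gene can have other starts, and the windows of NAV3, AHNAK, PPP2R2B, OTX2 and MPPED2 lie inside the gene's own coordinates. The sequence reads the same on both strands, and overlapping matches were counted. RefSeq promoters on GRCh38.p14 matched 11 of the 15 highest genes and 9 of the 15 lowest. The palindrome was in 3 of those 11 (27.3%) and in 2 of those 9 (22.2%), against 19.7% of all 27305 promoters in the table, so the shares of the named genes were near that of all promoters. The palindrome is rich in G and C, and the median share of G and C was 65.2%, 47.2% and 58% in these 3 sets. The matches among the highest genes were HMX1, ACTC1 and GATA3, and among the lowest MPPED2 and SOX2. The promoters of GATA3, ACTC1 and SOX2 follow as examples chosen from those with a match, with the palindrome in capitals. The windows of ISL1 and CLDN10, which like GATA3 are in the amnion list, held 0 palindromes. The GATA3 window is chr10:8045083-8045332 on the plus strand with 1 palindrome that begins 223 bases before the start, ACTC1 is chr15:34795550-34795799 on the minus strand with 2, at 159 and 70 bases, and SOX2 is chr3:181711675-181711924 on the plus strand with 1, at 131 bases.
GATA3: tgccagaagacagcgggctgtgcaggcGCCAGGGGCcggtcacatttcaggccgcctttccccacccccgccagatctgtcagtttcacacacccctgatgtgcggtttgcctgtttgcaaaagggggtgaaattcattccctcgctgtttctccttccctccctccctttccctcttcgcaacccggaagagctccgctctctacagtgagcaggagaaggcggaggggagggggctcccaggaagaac
ACTC1: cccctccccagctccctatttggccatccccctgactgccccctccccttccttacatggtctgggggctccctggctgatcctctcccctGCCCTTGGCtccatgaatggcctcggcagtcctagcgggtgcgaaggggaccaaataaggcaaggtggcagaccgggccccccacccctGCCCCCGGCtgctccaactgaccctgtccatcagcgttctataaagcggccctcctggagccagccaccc
SOX2: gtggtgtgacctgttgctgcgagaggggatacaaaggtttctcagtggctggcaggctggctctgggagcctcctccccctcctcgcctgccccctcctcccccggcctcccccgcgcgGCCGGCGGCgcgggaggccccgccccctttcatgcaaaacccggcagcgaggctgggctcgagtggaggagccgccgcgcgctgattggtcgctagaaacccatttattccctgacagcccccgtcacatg
A match is a description of letters and not a bound site.

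Amnion genes were higher as a group. The list held 28 genes, of which 14 were measured. Of these, 13 were counted as higher and 0 as lower, with a median log2 ratio of 1.07 (1.17 at matched depth), against a median of -0.01 over all 9719 genes. Of all 9719 genes 1.55% were counted as higher and 1.14% as lower. KRT18, a keratin of simple epithelia, was the member not counted, at 1212 CPM in the TFAP2A-high cells and 820.4 CPM in the cells with 0 (ratio 1.48). HPGD, which inactivates prostaglandins, was at 93.7 CPM in the TFAP2A-high cells and 38.8 CPM in the cells with 0, and KRT8, the partner of KRT18, at 617 and 374 CPM. HAND1, a factor of amnion and of extraembryonic and lateral mesoderm, was at 45.5 and 22.1 CPM in the same classes. CDX2, a caudal-type homeobox factor of trophoblast and posterior tissue, was at 26.9 and 12.6 CPM and TBX3, a T-box repressor, at 43.4 and 23.6 CPM, again in the TFAP2A-high cells and the cells with 0. Of the members below 10 CPM, WNT6 was at 5.51 CPM in the TFAP2A-high cells and 0.785 CPM in the cells with 0, IGFBP5 at 4.57 and 0.383 CPM and GATA2 at 4.57 and 2.17 CPM. GABRP, a receptor subunit often used as a later amnion marker, was at 4.26 CPM in the TFAP2A-high cells and 3.05 CPM in the cells with 0, with an interval of the ratio from 0.985 to 1.94. Among the measured members, DLX5, ISL1 and TFAP2C passed the minimum through the TFAP2A-high cells alone. They could not have been counted as lower, so their place in the count is a description. With a minimum of 2 CPM over all kept day 2 cells, 18 members were measured and the median was 1.03.

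Readouts of BMP signalling were higher too, and no receptor was counted. Of 14 BMP response genes 11 were measured and 8 counted as higher, with 0 lower and a median log2 ratio of 0.84, beside 1.55% higher over all measured genes. ID4, of the inhibitors that block basic helix-loop-helix proteins, was at 104 CPM in the TFAP2A-high cells and 48.3 CPM in the cells with 0, ID2 at 232 and 145 CPM, ID3 at 659 and 438 CPM, and ID1 at 599 and 423 CPM with a ratio of 1.42 that was under the threshold. BAMBI, a pseudoreceptor that dampens the pathway, was at 204 and 103 CPM in the same classes, and the homeobox factors MSX1 and MSX2 had ratios of 1.79 and 1.96. The inhibitory SMAD7 was at 61.4 CPM in the TFAP2A-high cells and 56.5 CPM in the cells with 0. GATA3 and DLX5 are in this list as well as in the amnion list, and so are BAMBI and MSX2. DLX5 passed the minimum through the TFAP2A-high cells alone. With 2 CPM over all kept cells 13 genes of the list were measured, and the median was again 0.84. Among the ligands, BMP4 was at 49.4 CPM in the TFAP2A-high cells and 28.5 CPM in the cells with 0, BMP7 at 42.8 and 19.99 CPM, and BMP2 at 23.2 and 25.2 CPM. None of the 9 measured receptors and SMADs was counted, and the receptor gene BMPR1A was at 307 CPM in the TFAP2A-high cells and 288 CPM in the cells with 0.

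The other signalling readouts were mixed. Of 13 measured WNT response genes 5 were higher and 2 lower, beside 1.55% higher and 1.14% lower over all measured genes. The ubiquitin ligase RNF43, which removes WNT receptors, had a ratio of 2.31, the deacylase NOTUM 1.90 and the nuclear effector LEF1 1.59, while the antagonist DKK1 had 0.639, LGR5 0.535 and the general readout AXIN2 1.02. WLS, the carrier needed to secrete WNT proteins, was at 205 CPM in the TFAP2A-high cells and 108 CPM in the cells with 0, WNT5B at 62.1 and 34.6 CPM and RSPO3, a WNT amplifier, at 9.76 and 19.3 CPM. Of 10 measured NODAL response genes 1 was higher (LEFTY2) and 3 were lower, LEFTY1, CER1 and GSC, while NODAL itself was at 165 CPM in the TFAP2A-high cells and 164 CPM in the cells with 0. None of 11 measured FGF response genes was counted. Of 7 measured Notch genes the ligand JAG1 was higher (1.52) and DLL3 lower (0.512).

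In the primitive streak list 16 genes were measured, 0 counted as higher and 5 as lower, with a median of -0.12. Over all measured genes 1.55% were higher and 1.14% lower. The genes TBXT, MIXL1 and EOMES were not among those counted. TBXT, which encodes brachyury, was at 91.0 CPM in the TFAP2A-high cells and 76.1 CPM in the cells with 0. MIXL1 was at 316 and 347 CPM and EOMES at 90.7 and 97.5 CPM in the same classes. The 5 that were lower were CER1, GATA6, LHX1, GSC and APLNR, several of which mark anterior streak, endoderm or migrating mesoderm. GATA6 was at 26.7 CPM in the TFAP2A-high cells and 53.7 CPM in the cells with 0, and LHX1 at 16.1 and 30.1 CPM. In the nascent mesoderm list, which shares LHX1 and APLNR, 4 of 11 were lower and 2 higher (HAND1 and LEF1), while MESP1 was at 62.0 CPM in the TFAP2A-high cells and 75.03 CPM in the cells with 0 (ratio 0.957 at matched depth). Of 5 measured genes of definitive endoderm 3 were lower and 0 higher, with a median of -1.01.

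Of 19 measured genes of core pluripotency 4 were counted as lower, SOX2, PRDM14, UTF1 and LNCPRESS1, and 0 as higher, with a median log2 ratio of -0.27 (-0.33 at matched depth). POU5F1, which encodes OCT4 and has pseudogenes that could share reads, was at 1009 CPM in the TFAP2A-high cells and 1035 CPM in the cells with 0. NANOG was at 47.2 and 59.3 CPM in the same classes. Of 11 measured primed epiblast genes OTX2 and FZD7 were lower and 0 were higher. The share of all measured genes counted as lower was 1.14%.

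Epithelial genes were at or above the level of the cells with 0. Of 15 measured epithelial genes 5 were counted as higher, CLDN10, KRT8, KRT19 and the desmosome genes DSP and PKP2, and 0 as lower, with a median of 0.28. The share of all measured genes counted as higher was 1.55%. CDH1, the E-cadherin gene, was at 120 CPM in the TFAP2A-high cells and 89.5 CPM in the cells with 0, and CDH2, the N-cadherin gene, at 143 and 166 CPM. Of 11 mesenchymal genes 1 was higher, the fibronectin gene FN1 at 209 CPM in the TFAP2A-high cells and 109 CPM in the cells with 0, and 0 were lower. Of 20 genes of actin and cytoskeleton 5 were higher, among them the annexins ANXA1 and ANXA3 and again the keratins KRT8 and KRT19, and 0 lower.

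Markers of other cell types were checked through their whole lists, beside 1.55% of all measured genes counted as higher and 1.14% as lower. Of the surface ectoderm list 6 of 15 genes were measured and KRT19 and KLF5 were higher, and of the neural crest list 4 of 12 were measured and PAX3 and MSX1 were higher. PAX3 passed the minimum through the TFAP2A-high cells alone, and with a minimum of 2 CPM over all kept cells 8 genes of that list were measured and its median log2 ratio was 0.33 in place of 0.50. SOX10, a defining gene of later neural crest, was below 2 CPM in both classes, and so was the epidermal factor TP63. In the trophoblast list 3 of 17 genes were measured and TFAP2C alone was counted, while CGA was at 2.39 CPM in the TFAP2A-high cells and 0.144 CPM in the cells with 0. The germ cell list also holds TFAP2C, its one member counted as higher, and UTF1, its one member counted as lower, with SOX17 at 7.89 and 5.21 CPM and NANOS3 at 2.91 and 1.13 CPM in the TFAP2A-high cells and the cells with 0. TFAP2C too passed the minimum through the TFAP2A-high cells alone. With 2 CPM over all kept cells 5 trophoblast genes were measured, with a median of 0.45 in place of 0.27. For germ cells 7 genes were then measured, with a median of 0.16 in place of 0.02. Of the cardiac list ACTC1 and ISL1 were measured and both were higher. ISL1 also passed through the TFAP2A-high cells alone, and with 2 CPM over all kept cells 4 cardiac genes were measured with a median of 0.97 in place of 1.64. Of 4 measured genes of extraembryonic mesoderm BMP4 and HAND1 were higher, of 6 of hypoblast GATA6, PDGFRA and RSPO3 were lower, of 2 hemato-endothelial genes TEK was lower, and the 1 measured gene of naive pluripotency, KLF5, was higher. Summed over all members, measured or not, the surface ectoderm list was at 849 CPM in the TFAP2A-high cells and 597 CPM in the cells with 0, the neural crest list at 171 and 135 CPM, the trophoblast list at 130 and 113 CPM and the hemato-endothelial list at 66.8 and 68.7 CPM. The keratins KRT5 and KRT14 of basal epidermis, the trophoblast genes CGB5 and ELF5, the neural gene SOX1 and the blood and vessel genes TAL1, GATA1 and PECAM1 had 0 UMIs in the TFAP2A-high cells, and none of 15 HOX genes was measured. TFAP2C, the AP-2 gamma gene, was at 18.2 CPM in the TFAP2A-high cells and 8.42 CPM in the cells with 0, the AP-2 inhibitor gene KCTD1 at 24.7 and 13.1 CPM, and the coactivator gene CITED2 at 62.8 and 48.0 CPM. No gene was counted among 15 of S phase, 15 of G2/M phase, 10 p53 targets, 12 of hypoxia and glycolysis, 9 of basement membrane, 5 of dissociation stress and 13 of the mitochondrial genome. Of 7 genes of the integrated stress response CHAC1 and DDIT4 were higher, and of 11 YAP-TEAD targets F3 was.

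Shares of cells with a UMI were compared after thinning, in which 5000 UMIs were drawn at random from each cell. That left 416 TFAP2A-high cells and 5939 cells with 0 TFAP2A UMIs, 1 and 472 shallower cells left out. GATA3 had a UMI in 17.5% of TFAP2A-high cells (14.0 to 21.6), against 6.72% of the cells with 0 (6.09 to 7.38), and before thinning in 54.4% and 18.0%. DLX5 had a UMI in 4.57% of the thinned TFAP2A-high cells and 1.38% of the cells with 0, ISL1 in 7.69% and 2.31%, and PAX3 in 3.61% and 0.842%. Free RNA gives some UMIs in cells that do not express a gene. As another comparison, 977 thinned cells with 0 TFAP2A UMIs, at least 3 SOX2 UMIs and no UMI of TBXT or MESP1 had a GATA3 UMI in 3.07%, a DLX5 UMI in 0.205%, an ISL1 UMI in 1.13% and a PAX3 UMI in 0.614%. These SOX2-marked cells are themselves a selected group. Whether their UMIs came from free RNA or from expression was not tested. The TFAP2A-high shares of these 4 genes were above those of the SOX2-marked cells, with intervals that did not overlap. Median depth before thinning was 21530.5 UMIs in the TFAP2A-high cells, 16005 in the cells with 0 and 18604 in the SOX2-marked cells. CLDN10 had a UMI in 37.7% of TFAP2A-high cells and 24.2% of the cells with 0, and in 26.4% of the SOX2-marked cells, so its UMIs were also found widely outside the TFAP2A-high cells. SOX2 had a UMI in 13.2% of TFAP2A-high cells (10.1 to 16.9), against 28.8% of the cells with 0 (27.6 to 29.9). TBXT had one in 28.4% and 26.5% and MIXL1 in 53.8% and 52.3% of the TFAP2A-high cells and the cells with 0, with overlapping intervals for both genes. By TFAP2A UMIs, TBXT was seen in 26.5%, 33.5%, 32.6% and 19.4% of thinned cells with 0, 1, 2 and 3 or more, and MIXL1 in 52.3%, 64.2%, 55.7% and 50%, so neither share ran in 1 direction along the TFAP2A UMIs.

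**Figure D3:**
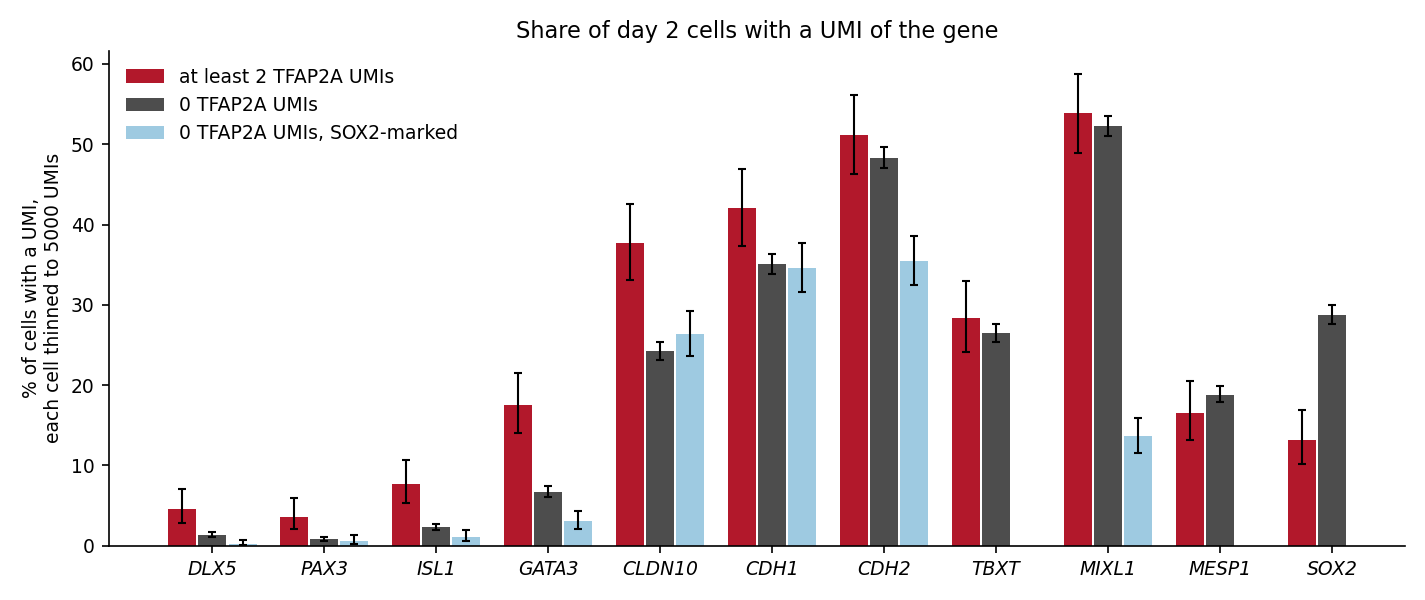
Share of day 2 cells with a UMI of each gene after thinning to 5000 UMIs, in 416 TFAP2A-high cells (red), 5939 cells with 0 TFAP2A UMIs (dark grey) and 977 SOX2-marked cells with 0 TFAP2A UMIs (blue, not drawn for SOX2, TBXT and MESP1, which defined them), with exact binomial 95% intervals. GATA3, DLX5, PAX3, ISL1 and CLDN10 were seen more often in TFAP2A-high cells and SOX2 less often, while TBXT, MIXL1 and MESP1 had overlapping intervals.

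Detection of amnion-associated and streak transcripts in the same barcode was counted after thinning. Of the 416 thinned TFAP2A-high cells 110 (26.4%) had a UMI of DLX5, GATA3, ISL1 or WNT6, against 10.1% of the cells with 0. Of the TFAP2A-high cells 15.1% had such a UMI along with one of TBXT, MIXL1, EOMES or MESP1, against 7.51% of the cells with 0, and 11.3% had it without any of those, against 2.63%. In the SOX2-marked cells the shares with and without were 1.02% and 3.48%. With the highest doublet scores removed they were 15.4% and 11.7% of 351 TFAP2A-high cells, against 7.36% and 2.75% of 5446 cells with 0. Given an amnion-associated UMI, 63 of 110 TFAP2A-high cells and 446 of 602 cells with 0 also had a streak or MESP1 UMI. That part was smaller in the TFAP2A-high cells, so the larger 15.1% does not show more frequent co-detection among such cells. TBXT, MIXL1 or EOMES without MESP1 was found in 55.3% of TFAP2A-high cells and 46.8% of the cells with 0, and MESP1 in 16.6% and 18.8%. SOX2 without any of these streak and mesoderm genes was found in 6.97% of TFAP2A-high cells and 16.2% of the cells with 0. Both cadherins were found in 21.6% of TFAP2A-high cells (17.8 to 25.9) and 16.7% of the cells with 0 (15.7 to 17.6). POU5F1 had a UMI in 95.7% and 96.0% of the TFAP2A-high cells and the cells with 0.

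Unthinned, 150 TFAP2A-high cells had a MESP1 UMI and 267 had none. The cells with MESP1 were at 7.91 CPM of DLX5, 6.0 CPM of PAX3 and 190 CPM of CLDN10, against 22.0, 16.1 and 282 CPM in those without it. GATA3 was at 41.2 CPM with MESP1 and 42.3 CPM without, ISL1 at 16.4 and 13.1 CPM and HAND1 at 61.6 and 35.6 CPM. The 20 TFAP2A-high cells richest in amnion-list UMIs, set apart further on, hold part of the DLX5 and PAX3 gaps, and 3 of them have a MESP1 UMI. Without them DLX5 was at 7.21 CPM with MESP1 and 11.6 CPM without, PAX3 at 4.16 and 11.4 CPM, CLDN10 at 193 and 229.5 CPM, ISL1 at 14.4 and 8.37 CPM and HAND1 at 51.8 and 18.9 CPM. GATA6 was at 57.5 CPM in the TFAP2A-high cells with MESP1, against 147 CPM in the cells with MESP1 and 0 TFAP2A UMIs, and CER1 at 40.1 CPM, against 137 CPM. These TFAP2A-high cells were also deeper (median 22656 UMIs, against 16676.5) and lower in MESP1 itself (163 CPM, against 246 CPM). SOX2 had a UMI in 145 TFAP2A-high cells. In those cells DLX5 was at 10.2 CPM and GATA3 at 38.5 CPM, against 1.40 and 10.6 CPM in the 3122 cells with SOX2 and 0 TFAP2A UMIs. The 145 cells were also deeper than the 3122 (median 27340 UMIs, against 17405) and lower in SOX2 itself (95.2 CPM, against 156 CPM). Without the 20 cells DLX5 was at 7.93 CPM and GATA3 at 38.1 CPM in the TFAP2A-high cells with SOX2.

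A few cells held much of the signal of the genes with the largest ratios. DLX5 had a UMI in 71 of the 417 cells, and 10 cells held 50% of its UMIs. The 10 cells with most UMIs of each gene held 61.0% of the PAX3 UMIs, 67.0% of S100A3, 31.7% of CLDN10 and 13.2% of GATA3, which had a UMI in 227 cells. Among the lowest genes, the same measure was 56.3% for CER1 and 24.7% for SOX2. CER1 had a UMI in 53 TFAP2A-high cells (12.7%, unthinned) and in 15.6% of the cells with 0. Its ratio therefore rests on few cells, a spread that its counting interval does not cover. Of the 71 cells with DLX5, 21 also had WNT6, which was in 35 cells in all, and 29 had EYA2, which was in 66. PAX3 and EYA2 shared 24 cells, of 45 with PAX3. Summed over the amnion list after thinning, the median TFAP2A-high cell had 11 UMIs of 5000, the upper quartile was 16 and the 90th percentile 30, against 7, 10 and 14 in the cells with 0. The keratins KRT8 and KRT18 make up much of such a sum. In the cells with 0 they were at 374 and 820 CPM, of 1573 CPM for the whole list.

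The 20 TFAP2A-high cells with the largest share of their UMIs in the amnion list, 0.794% or more, were set apart to see what they added, a choice made after seeing the data. They were not deeper, with a median of 17720 UMIs against 21662 in the other 397, and 0 of the 20 had a doublet score among the highest of the library, against 65 of the 397. The list chose them, so its own members are no result there. Its keratins KRT8 and KRT18, of simple epithelia, weighed heavily in that share. They were at 2516 and 4465 CPM in the 20 cells and 533 and 1069 CPM in the other 397. The 20 cells are thus rich in these keratins as well as in other members of the list. Of genes outside the list, ACTC1 was at 545 CPM in the 20 cells, 28.3 CPM in the other 397 and 16.3 CPM in the cells with 0 TFAP2A UMIs. EYA2 was at 126, 9.32 and 3.87 CPM in the same order, AMOT at 111, 9.65 and 2.93 CPM, and PAX3 at 96.6, 8.57 and 2.21 CPM. ACTC1, EYA2, AMOT and PAX3 were named for their ratios over all TFAP2A-high cells, these 20 included. The 20 cells held 45.7%, 37.2%, 33.6% and 33.1% of their TFAP2A-high UMIs, so these levels are a description too. Streak and pluripotency genes went the other way, with MIXL1 at 14.9 CPM in the 20 cells, 329 CPM in the other 397 and 347 CPM in the cells with 0. TBXT was at 9.91, 94.5 and 76.1 CPM and POU5F1 at 455.7, 1033 and 1035 CPM in that order. NANOG had 7.43 CPM in the 20, 48.9 CPM in the other 397 and 59.3 CPM in the cells with 0. ID1 was at 562 CPM in the 20 and 601 CPM in the other 397, and HMX1 at 9.91 and 12.6 CPM. The same share of amnion UMIs was reached by 4.80% of the TFAP2A-high cells, by 14 of the 1064 cells with 1 TFAP2A UMI (1.32%) and by 26 of the 6411 with 0 (0.406%, 0.265 to 0.594).

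Without these 20 cells, 108 genes were counted as higher and 97 as lower, of which 104 and 93 were among the 151 and 111. DLX5 was then 4.19-fold higher than in the cells with 0, PAX3 3.87-fold and EYA2 2.41-fold, all 3 at under 10 CPM and so no longer counted. CLDN10 remained 2.82-fold higher and GATA3 2.68-fold. ACTC1 had a ratio of 1.73, against 3.06 with them, and KIF26B 1.94, against 3.03. Of the amnion list, HAND1 (1.43), BMP4 (1.40) and KRT8 (1.43) came under the threshold of 1.5. KRT8 is also among the genes counted as higher in the epithelial and the actin and cytoskeleton lists. The median of the amnion list was 0.92, against 1.07 with them, and that of the BMP response list 0.71, against 0.84. SOX2 had a ratio of 0.460 and CER1 0.354, against 0.448 and 0.341 with them. GABRP, at 2.06 CPM in the other 397 cells and 3.05 CPM in the cells with 0, then had a ratio of 0.676, with 53.7% of its TFAP2A-high UMIs in the 20 cells.

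**Figure D4:**
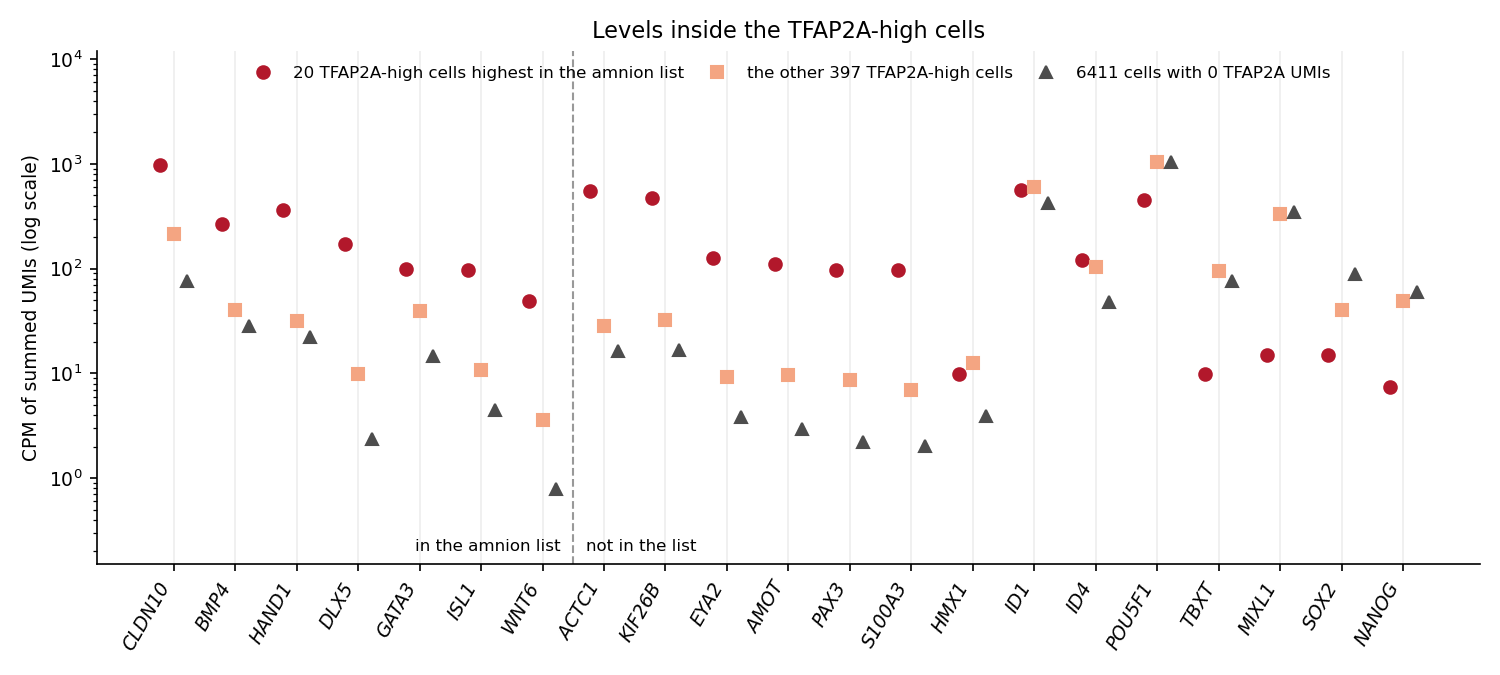
CPM of summed UMIs (log scale) of 21 genes in the 20 TFAP2A-high cells highest in the amnion list (circles), the other 397 TFAP2A-high cells (squares) and the 6411 cells with 0 TFAP2A UMIs (triangles). Genes left of the dashed line are in the list that chose the 20 cells; to its right ACTC1, KIF26B, EYA2, AMOT, PAX3 and S100A3 are highest in the 20 cells, and POU5F1, TBXT, MIXL1, SOX2 and NANOG lowest.

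The same classes were formed in the day 1 and day 3 libraries, which played no part in choosing the day 2 cells. Days, libraries and any batch coincide, and kept barcodes shared between libraries were 5 for days 1 and 2, 10 for days 1 and 3 and 13 for days 2 and 3. TFAP2A-high cells were 494 of 3677 kept cells at day 1 (13.4%), 417 of 7892 at day 2 (5.28%) and 272 of 7261 at day 3 (3.75%), with median depths of all kept cells of 42295, 16007.5 and 19576 UMIs, so the same threshold was applied at different depths. At days 1, 2 and 3 the share of measured genes counted as higher was 1.89%, 1.55% and 9.56%, and as lower 0.503%, 1.14% and 5.07%.

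Of the 151 genes higher at day 2, 98 were measured at day 1, where 50 were counted as higher (51.0%) and 1 as lower, and 138 at day 3, where 94 were counted as higher (68.1%) and 4 as lower. These are 28.9% of the genes higher at day 1 and 9.81% of those at day 3. Their median log2 ratio was 0.60 at day 1 and 1.17 at day 3, beside 0.04 and -0.01 over all measured genes. In both other libraries 30 were counted as higher, among them GATA3, CLDN10, CDX2, MSX2, HPGD, ID4, BMP7, WLS and WNT5B. GATA3 had ratios of 2.62, 2.85 and 2.03 at days 1, 2 and 3, and CLDN10 1.78, 3.24 and 8.34. ISL1 had ratios of 3.74, 3.18 and 3.78, with a level in TFAP2A-high cells of 3.85, 14.3 and 100.1 CPM. ACTC1 had ratios of 1.01, 3.06 and 1.80, and HAPLN1 4.20, 2.77 and 0.720, the first of these at 5.35 CPM in TFAP2A-high cells and so below the minimum.

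Of the 111 genes lower at day 2, 70 were measured at day 1, where 20 were lower (28.6%) and 0 higher, and 65 at day 3, where 33 were lower (50.8%) and 10 higher (15.4%). CER1 had ratios of 0.422, 0.341 and 0.262 at days 1, 2 and 3 and MPPED2 0.555, 0.353 and 0.476, and these 2 were, with KCNN2 and RND3, the 4 lower in all 3 libraries. SOX2 had ratios of 0.676, 0.448 and 0.841, on levels in TFAP2A-high cells of 136, 39.6 and 5.39 CPM.

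Gene lists were compared with the cells with 0 TFAP2A UMIs in the same way on each day. The amnion median was 0.75, 1.07 and 1.79 at days 1, 2 and 3, from 11, 14 and 23 measured genes, of which 7, 13 and 17 were higher. IGFBP3 had a ratio of 1.64 at day 2 and 60.2 at day 3, GABRP 1.40 and 26.5 and KRT7 2.17 and 35.4. At day 2 all of these were under 10 CPM in both classes and so not measured. The 20 cells highest in the amnion list held 27.3% of the KRT7 UMIs of the day 2 TFAP2A-high cells. The primitive streak median was 1.66, -0.12 and -0.49, with 7 of 9 genes higher at day 1, 0 of 16 at day 2 and 3 of 16 at day 3. TBXT had ratios of 5.21, 1.20 and 1.30 and MIXL1 4.64, 0.912 and 0.794. The WNT response median was 1.65, 0.34 and 0.00. The epithelial median was 0.10, 0.28 and 1.65, with 2 of 16, 5 of 15 and 15 of 16 genes higher, and CDH1 had ratios of 1.42, 1.34 and 5.47. For nascent mesoderm the median was 0.74, -0.27 and -1.27, the first from 3 genes. Differences between days were not tested.

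**Figure D5:**
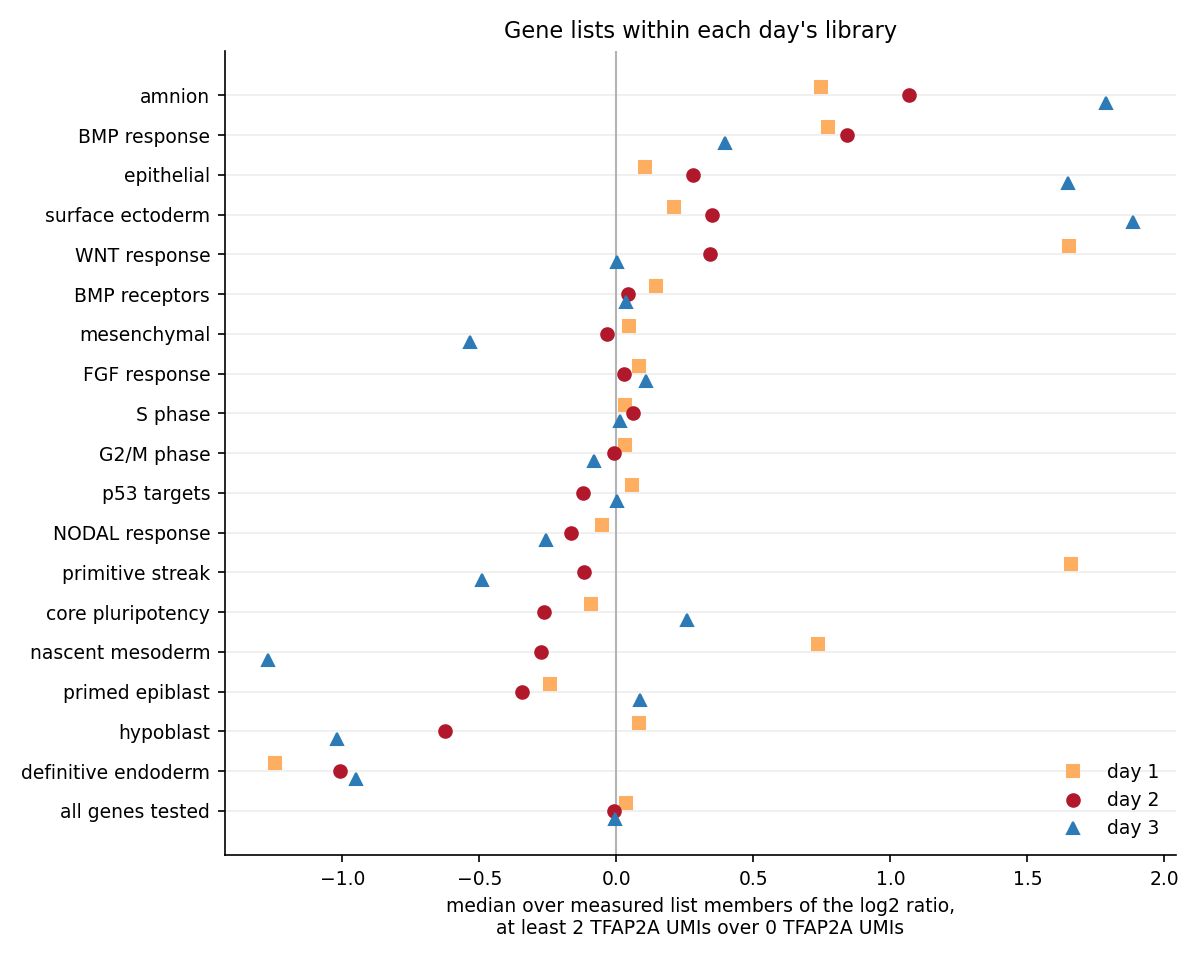
Median over the measured members of selected gene lists, and over all measured genes, of the log2 ratio of cells with at least 2 TFAP2A UMIs over cells with 0, within the library of day 1 (squares), day 2 (circles) and day 3 (triangles). At day 2 the amnion (1.07) and BMP response (0.84) lists lie furthest right of those drawn (the cardiac list, 1.64 from 2 genes, is not), the primitive streak list is near 0 (-0.12) after 1.66 at day 1, and the epithelial list is at 0.28 before 1.65 at day 3.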

How the data were processed

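The authors deposited raw UMI counts per gene and barcode, 1 matrix for each of the 3 libraries, with 36601 genes each. Per the submitters' processing notes they were made with Cell Ranger 5.0.1 on hg38. Total counts per library were 177597152, 140291909 and 154373927 UMIs at days 1, 2 and 3. The filter kept 3677, 7892 and 7261 of 4889, 10580 and 7860 barcodes. Of the 2688 day 2 barcodes it removed, 1 had at least 2 TFAP2A UMIs.

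The TFAP2A-high cells and the 39 gene lists were chosen with earlier results of these data known. UMIs were summed over the cells of a class and scaled to CPM, and the ratio of classes has an exact conditional binomial interval, a share an exact binomial (Clopper-Pearson) one and a level an exact Poisson one. UMIs of a cell are not replicates and there is 1 library per day, so no test across samples could be made. Cells with 0 TFAP2A UMIs were reweighted in 20 depth bins for the values at matched depth. The named genes were the 15 highest and 15 lowest of those counted, ranked by the less extreme of the plain and the depth-matched ratio, together with members of the gene lists. Doublets were not removed. Scrublet, through scanpy 1.11.5, marked 3, 1 and 1 kept cells with its automatic threshold, too few for its calls to be used, and no source used here states whether doublets were removed earlier, so an alternative removed the highest scores, 0.8% per 1000 barcodes (144, 668 and 457 cells). The counting and ratio steps were tested on simulated data. Gene coordinates are from GENCODE on hg38 and promoters from RefSeq on GRCh38.p14. Python 3.11.15, numpy 2.4.6, scipy 1.17.1, pandas 2.3.3, R 4.3.3 and edgeR 4.0.16 were used, edgeR for its TMM scaling alone.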

Additional observations from a re-analysis of the deposited data

Results flagged for a closer look

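Some genes had a ratio of TFAP2A-high cells to cells with 0 TFAP2A UMIs that was counted in opposite directions in different libraries, which was 4 of the 151 higher and 10 of the 111 lower genes for day 3 and 1 of the higher genes for day 1. The 4 described here are those that the gene lists name, and the differences between days were not tested. BMP4 had a ratio of 0.665 at day 3, at 273 CPM in TFAP2A-high cells and 411 CPM in cells with 0, against 1.73 at day 2. KLF5, a Krüppel-like factor of epithelia, had a ratio of 0.543 at day 3, at 13.7 and 25.3 CPM in the same classes, against 1.74 at day 2. The pluripotency-associated non-coding RNA LNCPRESS1 had a ratio of 1.98 at day 3, at 14.0 CPM in TFAP2A-high cells and 7.08 CPM in cells with 0, against 0.636 at day 2. LEFTY2 had a ratio of 0.437 at day 1, at 25.6 CPM in TFAP2A-high cells and 58.7 CPM in cells with 0, against 1.80 at day 2, and its reads may be split with LEFTY1.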

How the results depend on the processing

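No paired analysis was possible because each day has 1 library. The 30 named genes kept their direction in all 360 values under the alternatives, and 17 of those values no longer met the rule for a counted gene, 7 of them without the 20 cells highest in the amnion list and 5 of them for AC004830.2. The count of 151 higher genes became 232 with each cell thinned to 5000 UMIs, 260 with at least 3 TFAP2A UMIs, 694 with no minimum CPM and 66 with a minimum of 30 CPM. The count of 111 lower genes became 268 when thinned, 337 as a mean of per-cell CPM, 216 with at least 3 TFAP2A UMIs, 73 with at most 10% mitochondrial UMIs, 614 with no minimum and 34 at 30 CPM. A lower minimum admits more genes and a higher one fewer, and for the others the cause was not tested. With the highest doublet scores removed the counts were 189 and 159, of which 149 and 106 were among the 151 and 111, and against cells matched in depth they were 172 and 88. The median of the hypoblast list, -0.63, was 0.0144 with no minimum and 0.298 at 30 CPM, and that of the primitive streak list, -0.12, was 0.01 at 30 CPM. TMM and median-of-ratios scaling shifted log2 ratios by 0.003 and 0.004. The alternatives without the 20 cells, with a minimum of 2 CPM over all kept cells, and the shares of marker classes without the highest doublet scores were chosen after seeing the data. Depth limits genes of a few CPM, for which 1 library gives wide counting intervals, and the classes rest on counts of 1 gene, so a cell with 0 or 1 TFAP2A UMI is not shown to lack it.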

Other observations

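The share of amnion-list UMIs that marked the 20 TFAP2A-high cells was also reached by 26 cells with 0 TFAP2A UMIs. Summed over those 26 cells, DLX5 was at 69.6 CPM, CLDN10 at 1018 CPM and GATA3 at 69.6 CPM, all of them in the list that chose the cells. Outside the list, PAX3 was at 48.0 CPM, EYA2 at 62.4 CPM, AMOT at 67.2 CPM, S100A3 at 103 CPM and ACTC1 at 132 CPM, against 2.21, 3.87, 2.93, 2.01 and 16.3 CPM over all 6411 cells with 0 TFAP2A UMIs. POU5F1 was at 341 CPM, TBXT at 14.4 CPM and MIXL1 at 24.0 CPM in the 26 cells. TP63, a factor of stratified epithelia, was at 28.8 CPM in them. The values come from 26 cells. They were picked after seeing the data by their amnion-list share, in which KRT8 and KRT18 weigh heavily.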
